A study of Mus musculus with 15 samples.

Results

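The expression of 49 genes of chemokines and chemokine receptors was described in 3 cell populations sorted from mouse melanomas. They are the rows of the deposited table whose symbol names such a ligand, receptor or atypical receptor and whose mean over the 15 libraries was at least 5 normalized counts. Of 53465 genes in the table, 57 rows carried such a symbol and 49 reached this mean, as did 25549 genes in all, which is the set that was tested. They comprised 17 CC ligands, 13 CXC ligands, the CX3C ligand Cx3cl1, the XC ligand Xcl1, 13 receptors and 4 atypical receptors. Xcl1, at a mean of 5.01 normalized counts, was the lowest gene inside the limit and Ccl1, at 4.83, the highest outside it, followed by Ccr10, Ccr6, Ccr4, Ccr8, Cxcr1, Ccl26 and a further row named Ccl19 that was at 0 in every library.

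Chemokines are small secreted proteins that guide the movement of cells, and they are sorted by the spacing of their first cysteines into CC, CXC, CX3C and XC ligands. They signal through receptors that couple to inhibitory G proteins, while the atypical chemokine receptors (Ackr1 to Ackr4) bind ligands without this signal and take them up, transport them or clear them. In vessels, endothelial cells hold chemokines on heparan sulfate at their surface, respond to Cxcl12 through Cxcr4 during sprouting, and display Cxcl9, Cxcl10 and Cx3cl1 to passing leukocytes. Fibroblasts and macrophages of a tumor are known sources of Ccl2, Ccl7, Ccl11 and Cxcl12.

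B16-F0 is a mouse melanoma cell line, and its tumors were grown in CAG-GFP mice, in which all host cells carry green fluorescent protein while the melanoma cells do not. Tumors were collected on day 15, digested with enzymes and depleted of cells bearing blood lineage markers, and GFP+ Lin- CD34+ cells were sorted by CD31 and VEGFR2. The endovascular progenitors (EVP) were CD31lo VEGFR2lo, the transit amplifying cells (TA) CD31int VEGFR2lo and the definitive differentiated cells (D) CD31hi VEGFR2hi, with 5 libraries each. Mice of the study were 8 to 14 weeks old and of both sexes, every population came from transgenic hosts that bore a tumor, and the gates describe a surface phenotype and not 1 cell type. Neither the labels nor the methods state whether the libraries of a population came from separate animals, so the p-values measure the spread between these libraries, which may be technical. The study asked how the molecular profiles of the 3 populations differ.

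Library depth ran from 5394356 to 26513073 reads assigned to genes (median 19049194), and 3 reads, taken as the limit of detection, equalled 1.81 to 10.5 normalized counts. EVP1, D1 and TA1 stood apart before any comparison: genes of olfactory receptors, which these cells are not known to use, had a median of 8.59, 3.03 and 2.75 reads per kb there and at most 0.667 in the other 12 libraries. All libraries had some such reads. They fell on 81.6% to 98.3% of these genes in EVP1, D1 and TA1 and on 57.8% to 71.0% in TA2, EVP2 and TA3. In the rest they fell on 2.89% to 24.1%. TA4 stood apart by a summed level of 8 pan-leukocyte genes of 12029.9 normalized counts per kb, against 2022 to 4704 in the other TA libraries, 489.9 to 3611 in EVP and 1228 to 2029 in D. Endothelial markers (12 genes) summed to 772 to 1590.3 normalized counts per kb in EVP, 2564 to 20356 in TA and 28298 to 47810 in D. Of the 12, 11 were called higher in D than in EVP, beside 7.46% of all tested genes. Fibroblast markers (10 genes) summed to 117099 to 214990 in EVP, 26172 to 79039 in TA and 148 to 555 in D. All 10 were called higher in EVP and in TA than in D, beside 11.6% and 8.21% of all tested genes. The part of these cell types in the differences below was not tested, and in bulk RNA fewer cells of a type and less RNA per cell cannot be told apart.

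The summed level of the ligands was highest in EVP, lower in TA and lowest in D. Of the 32 ligands, 16 had means in this order, 13 had their highest mean in TA and 3 in D. The means of Cxcr4, Cx3cl1 and Cxcl9 ran from lowest in EVP to highest in D. For Cx3cl1 those of TA and D were nearly equal (571 and 577), and Cxcl9 was not called. Summed over the 32 ligands, EVP libraries held 59776 to 119220 normalized counts per kb (86378 ± 22332, SD, n = 5), TA libraries 24731.5 to 66797 (44239.6 ± 17976) and D libraries 5013 to 9706.5 (7863 ± 2103). No D library reached the lowest TA library, and EVP and TA overlapped at 1 point, since TA2 (66797) lay above EVP5 (59776). The 13 signalling receptors together held far less, 351 ± 211 in EVP, 940.4 ± 642 in TA and 337 ± 87.8 in D, with 2059 in TA4 alone. The mean over libraries was highest in EVP for 23 of the 49 genes, in TA for 22 and in D for 4 (Cxcl9, Cxcl11, Cx3cl1 and Cxcr4). The same shares over all tested genes were not counted. EVP1 set the EVP means of Ccl28, Cxcl15, Cxcl17, Ccr9 and Ccr3, which are among the 23. It had 270.4, 316, 42.1, 864 and 66.7 normalized counts for them, against EVP medians of 2.61, 0, 3.92, 19.98 and 1.38. Ccl28, Cxcl15 and Cxcl17 are also among the 16 ligands above.

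**Figure D1:**
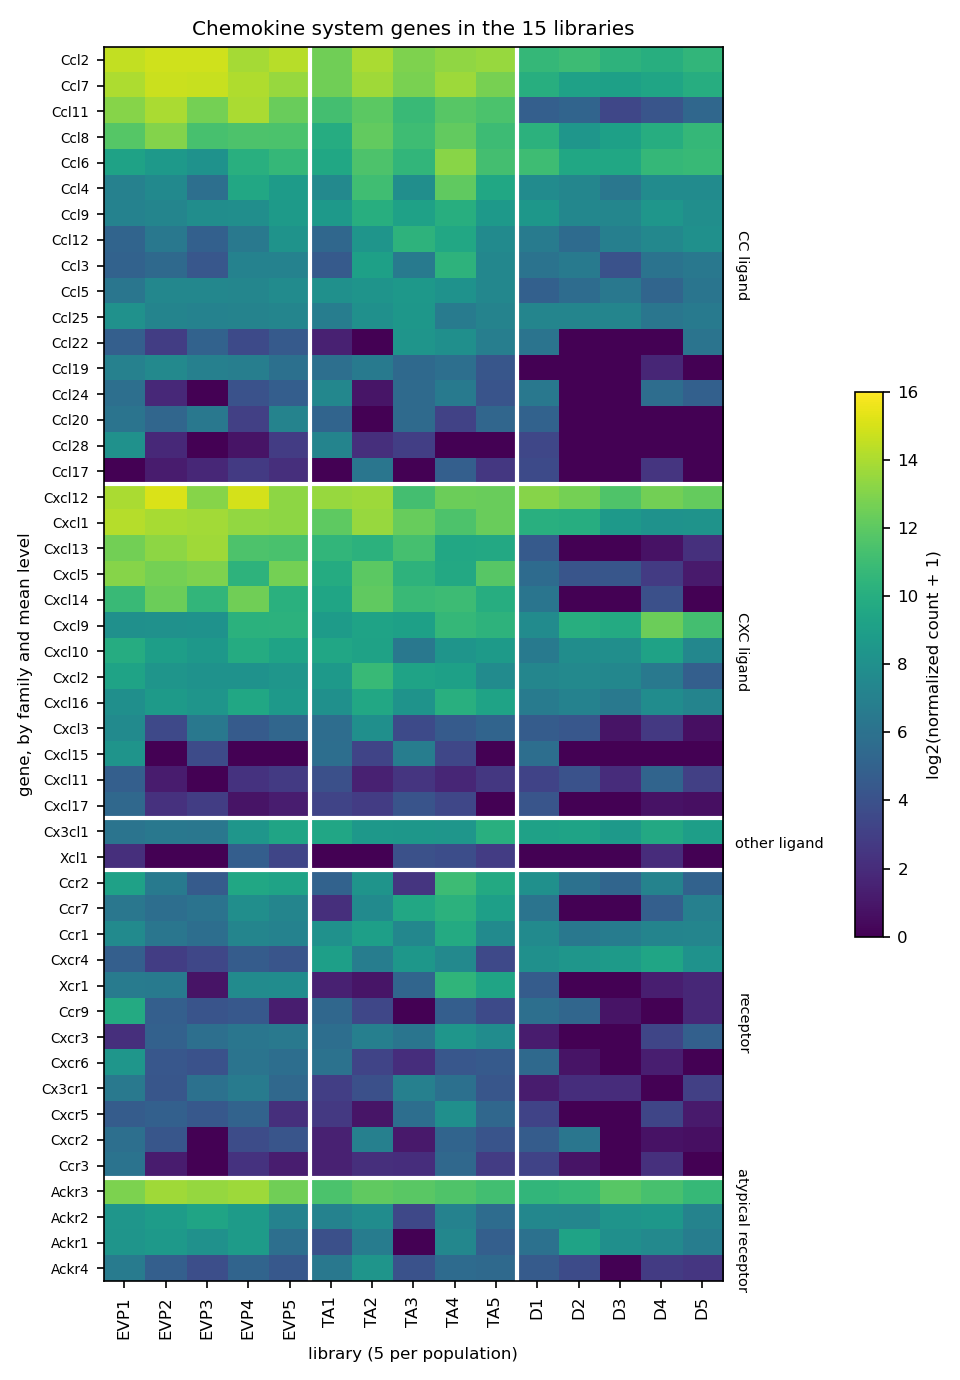
Heat map of log2(normalized count + 1) for 48 of the 49 genes (rows, grouped as CC ligands, CXC ligands, other ligands, receptors and atypical receptors and ordered by mean level) in the 15 libraries (columns, 5 each of EVP, TA and D). Ccl2, Ccl7, Ccl11, Cxcl13, Cxcl5 and Cxcl14 are bright in all 10 EVP and TA libraries and darker in the 5 D libraries, and Cxcr4 is darker in EVP than in D.

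Between EVP and D, 18 of the 49 genes (36.7%) were called higher in EVP and 2 (4.08%) higher in D by limma at an adjusted p under 0.05. Below, called refers to limma unless another tool is named. Of all tested genes, 11.6% were called higher in EVP and 7.46% higher in D. The libraries of EVP and D did not overlap for 14 genes that were higher in EVP and for Cxcr4, which was higher in D, while over all tested genes this held for 10.2% and 7.52%. The median log2 fold change was 1.65 over the 49 genes and 0.46 over all tested genes. Quantile normalization moved the median of all tested genes to -0.05 and the calls of all genes from 2952 higher and 1907 lower in EVP to 1920 higher and 1983 lower, and under it 13 of the 49 genes were called higher in EVP and 2 higher in D. It ended the calls of Ccl5, Cx3cr1, Cxcl16, Cxcl2 and Cxcr3, while edgeR on whole reads did not call Ccl20, Cx3cl1, Cxcl2, Cxcr3 and Cxcr6. DESeq2 did not call Ccl20, Cx3cl1 and Cxcr3 and added Cxcl3 and Xcr1.

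Between EVP and TA, 4 genes (8.16%) were called higher in EVP, namely Ackr3, Ccl2, Ccl7 and Ccl11, and 2 (4.08%) higher in TA, namely Ccl9 and Cxcr4. The shares over all tested genes were 1.56% and 1.94%. Libraries did not overlap for Ackr3, Ccl11 and Cxcl13, each higher in EVP, and for no gene higher in TA, against 2.7% and 1.59% of all tested genes. The median log2 fold change was -0.16 over the 49 genes and 0.09 over all. Scaling to the same total left 3 of the 49 genes called in each direction and turned the split of all calls from 398 higher and 495 lower in EVP to 237 higher and 714 lower, and Ackr3 was the only one of the 6 that stayed called without the number 1 libraries or without EVP2 (of 15 libraries left out in turn). DESeq2 called 14 of the 49 genes, adding Ackr2, Ccl3, Ccl4, Ccl6, Ccl12, Ccr1, Cxcl1 and Cxcl12, while edgeR did not call Ccl7 and Ccl9.

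Between TA and D, 16 genes (32.7%) were called higher in TA and none higher in D by limma, where edgeR and DESeq2 also called none higher in D and 2 genes (Ackr1 and Ackr2) were higher in D at an unadjusted p under 0.05. Over all tested genes the shares were 8.21% and 4.31%. The TA and D libraries did not overlap for 14 genes that were higher in TA and for none that was higher in D, against 5.56% and 3.69% of all tested genes. The median log2 fold change was 1.78 over the 49 genes and 0.24 over all, which quantile normalization moved to -0.10. Without the number 1 libraries 47 of the genes were still tested and 23 were called, all higher in TA. Of all 19494 genes tested there, 2832 were called higher in TA and 1565 higher in D. Quantile normalization ended the calls of Ackr4, Ccl5, Ccl9 and Cx3cr1. The edgeR test did not call Ackr4 and Ccl8 and added Ccl4 (adjusted p = 0.0293) and Xcr1 (0.0429). DESeq2 called 24 of the 49 genes, with Ccl3, Ccl4, Ccr1, Ccr7, Cxcl3, Cxcr5 and Xcr1 among those it added.

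Of the 49 genes, 22 were called in at least 1 comparison, 3 in all 3 comparisons (Ccl2, Ccl7 and Ccl11), 14 in 2 and 27 in none. Each pair of comparisons shares the libraries of 1 population, so their calls are not independent of each other. In the values below, libraries are given in the order 1 to 5 of each population, in normalized counts.

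**Figure D2:**
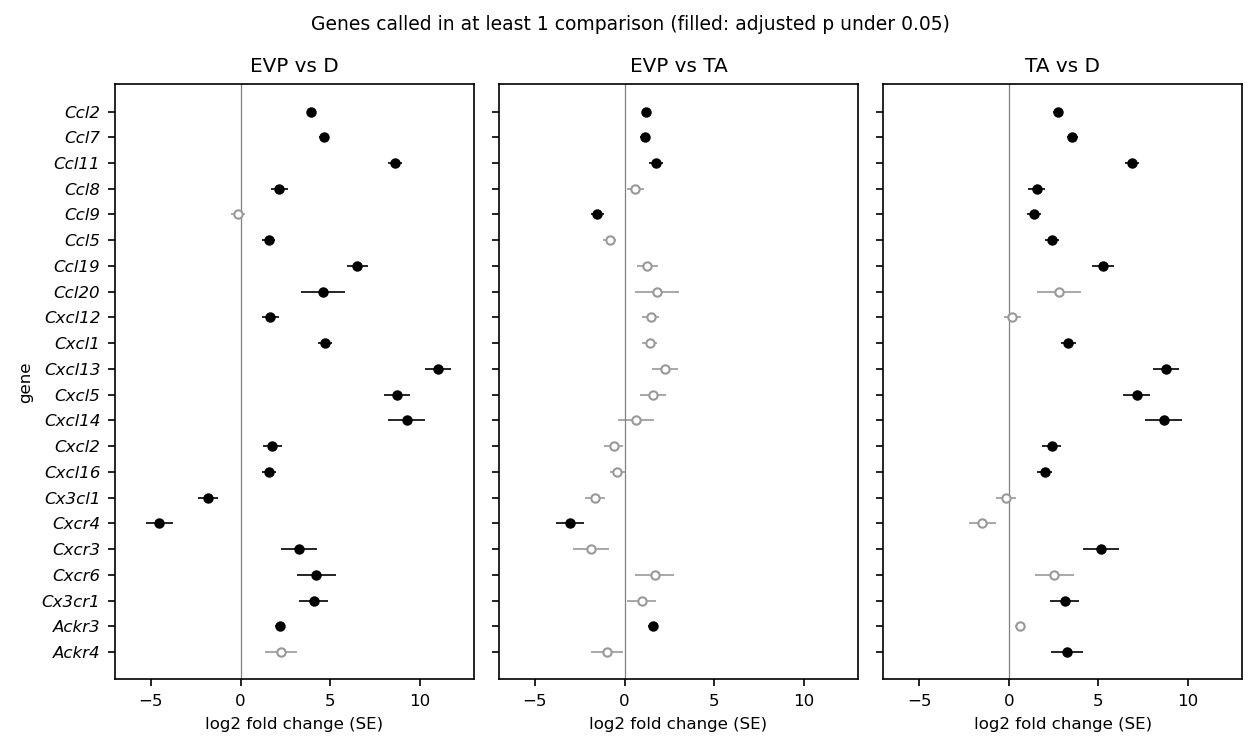
Log2 fold change (x axis) with its standard error for the 22 genes called in at least 1 comparison (y axis), in EVP against D, EVP against TA and TA against D, with filled points for an adjusted p under 0.05. Points right of 0 are higher in the population named first, and Cxcr4 lies left of 0 in all 3 panels.

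Per length, the largest ligand levels in EVP belonged to a row of CC genes on chromosome 11, whose products draw monocytes and eosinophils: Ccl7 (24566 normalized counts per kb), Ccl2 (20499), Ccl11 (9682) and Ccl8 (7909). Ccl2 (chr11:82035571-82037453, GRCm38, plus strand), the main attractant of monocytes through Ccr2, had 24139, 28990.0, 29249, 14567 and 19696 in EVP, 5841, 16374, 7766, 10302 and 11896 in TA and 1639, 2025, 1301, 1027 and 1478 in D. Every EVP library was above every D library, and the lowest EVP library (14567) was below the highest TA library (16374). The means were 23328 ± 6279 in EVP, 10436 ± 4051 in TA and 1494 ± 374 in D (SD, n = 5), so that EVP stood 15.6 times above D (log2 fold change 3.95, SE 0.26, limma, adjusted p = 7.57e-09) and 2.24 times above TA (log2 fold change 1.20, SE 0.26, limma, adjusted p = 0.0162). Without EVP2 or EVP3 the difference between EVP and TA had an adjusted p of 0.0568 and 0.053 in limma.

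Ccl7 (chr11:82045712-82047525), its neighbour and also a ligand of Ccr2, had 16699, 26876, 25362, 17486 and 11962 in EVP, 5877, 13748, 7016, 13050.2 and 6629 in TA and 1053, 575, 539, 687 and 982 in D. All EVP and TA libraries lay above all D libraries, and EVP and TA overlapped. EVP exceeded D by 25.7 times (log2 fold change 4.67, SE 0.28, limma, adjusted p = 3.05e-09) and TA exceeded D by 12.1 times (log2 fold change 3.55, SE 0.28, limma, adjusted p = 2.07e-07). Between EVP and TA the ratio was 2.12 (log2 fold change 1.12, SE 0.28, limma, adjusted p = 0.0365), and this call was lost in 7 of the 15 fits that left out 1 library (EVP1 to EVP4, TA1, TA3 and TA5), with adjusted p of 0.0507 to 0.117 in limma.

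Ccl11 (chr11:82057823-82062955), eotaxin, the ligand of Ccr3 on eosinophils, showed the widest gap of the row. It had 8760.2, 15779.8, 6555, 15997 and 5288 in EVP and 2392, 3980.4, 1799, 3630.0 and 2861 in TA, but only 27.5, 35.1, 9.38, 17.3 and 40.5 in D. The 3 populations did not overlap at any point. The mean of EVP was 404 times that of D (log2 fold change 8.62, SE 0.39, limma, adjusted p = 1.35e-10), the mean of TA 113 times that of D (log2 fold change 6.87, SE 0.39, limma, adjusted p = 7.77e-09) and the mean of EVP 3.57 times that of TA (log2 fold change 1.75, SE 0.39, limma, adjusted p = 0.0173). Leaving out EVP2, EVP4 or TA3 raised the adjusted p between EVP and TA to 0.064, 0.0516 and 0.0522 in limma.

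Ccl8 (chr11:82115185-82116799), which also draws monocytes and closes the row, had 3574, 8204, 2608, 2942 and 2879.9 in EVP, 939, 4597, 2089, 4603 and 1981 in TA and 1249, 336, 543, 999 and 1647 in D. EVP2 stood above the other EVP libraries, and all EVP libraries were above all D libraries, by 4.23 times in the mean (log2 fold change 2.15, SE 0.47, limma, adjusted p = 0.00292). TA was 2.98 times above D (log2 fold change 1.55, SE 0.47, limma, adjusted p = 0.0387), with a call lost without TA2, TA3, TA4, TA5, D2, D3 or D4 at adjusted p of 0.0528 to 0.117 in limma. Ccl12, which lies between Ccl11 and Ccl8 and is the mouse monocyte attractant closest in use to Ccl2, had 29.5 to 292 in EVP, 39.6 to 1318 in TA and 48.2 to 263 in D. It was not called by limma in any comparison (EVP against TA adjusted p = 0.204). DESeq2 called it higher in TA than in EVP (adjusted p = 0.0265).

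**Figure D3:**
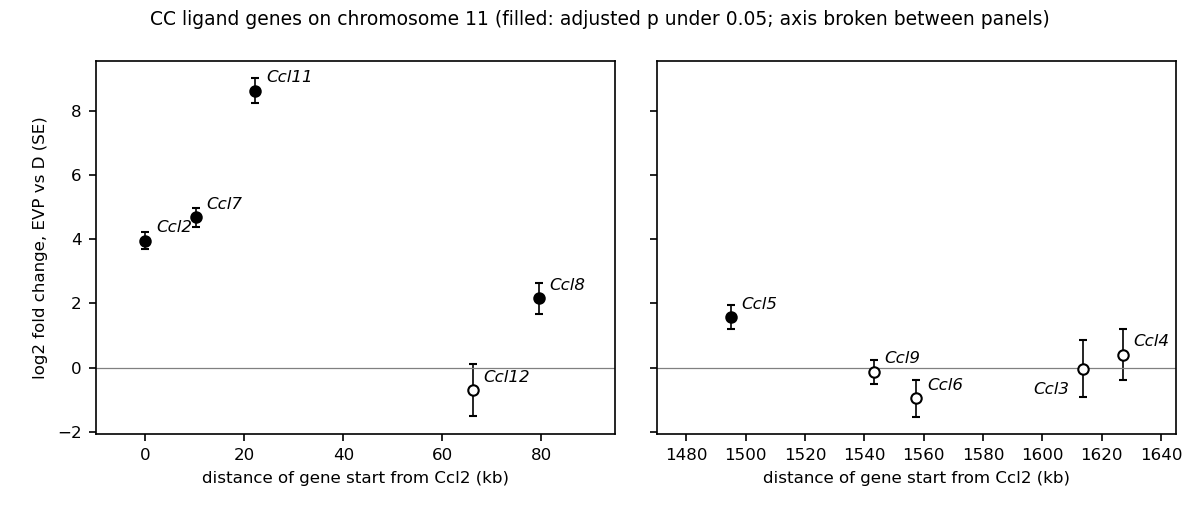
Log2 fold change of EVP against D with its standard error (y axis) for 10 CC ligand genes by the distance of their start from that of Ccl2 (x axis, kb, with a break between the panels), filled where the adjusted p was under 0.05. Ccl2, Ccl7 and Ccl11, within 22.3 kb, lie between 3.95 and 8.62, Ccl12 lies at -0.70, and of the 5 genes about 1.5 Mb away only Ccl5 is filled, at 1.57.

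A group of CC ligands lies farther along chromosome 11 and includes ligands of Ccr1, which are known products of macrophages and T cells. Ccl5 (chr11:83525778-83530518), an attractant of T cells, had 77.2, 169.8, 168, 165 and 211 in EVP, 257, 314, 371, 289.9 and 165 in TA and 28.8, 49, 85.2, 36.1 and 71.9 in D. The TA libraries were all above the D libraries, while EVP1 fell within the range of D. The ratio was 5.15 between TA and D (log2 fold change 2.41, SE 0.37, limma, adjusted p = 0.000259) and 2.92 between EVP and D (log2 fold change 1.57, SE 0.37, limma, adjusted p = 0.00488), and quantile normalization ended both calls. Ccl9 (chr11:83572919-83578636), a ligand of Ccr1, had 133, 152, 231, 244 and 415 in EVP, 393, 1039, 563, 1052 and 389 in TA and 349, 167, 159, 337 and 238 in D. It was higher in TA than in EVP by 2.93 times (log2 fold change -1.52, SE 0.38, limma, adjusted p = 0.0322) and higher in TA than in D by 2.75 times (log2 fold change 1.39, SE 0.38, limma, adjusted p = 0.0199). These calls were lost without any 1 of 7 libraries in the first comparison (EVP1 to EVP4, TA2, TA3 and TA4, adjusted p 0.0571 to 0.1 in limma) and without TA2, TA4, D2 or D3 in the second (0.0552 to 0.0587 in limma).

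Ccl6 (chr11:83587882-83593087), a further ligand of Ccr1, was among the 10 genes with the highest means but was not called by limma. It had 583, 408, 286, 1101 and 1636 in EVP, 751, 2940.5, 1469.9, 9254 and 2378 in TA and 2081, 748, 729, 1624 and 1790.1 in D. TA4 was far above all other libraries, and the 3 populations overlapped. The log2 fold change of EVP against D was -0.95 (adjusted p = 0.335, limma) and that of EVP against TA -1.84 (adjusted p = 0.0955, limma), where DESeq2 gave an adjusted p of 0.00786. Ccl3 and Ccl4, the macrophage inflammatory proteins, followed the same libraries: Ccl4 had 183 to 4387 in TA, 55.6 to 769 in EVP and 80.5 to 211 in D, and Ccl3 had 22.4 to 1301 in TA, 19.6 to 137 in EVP and 15.6 to 97.1 in D, each with its highest level in TA4. Neither was called by limma, and DESeq2 called both higher in TA than in EVP and than in D. Ccl4 was also called higher in TA than in D by edgeR. TA4 also held the highest pan-leukocyte (12029.9), macrophage (26702) and dendritic cell (41999.7) marker sums per kb of the 15 libraries, against TA medians of 3899, 11094 and 6637, and the part of these cells in the levels of Ccl3, Ccl4 and Ccl6 was not tested.

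Ccl19 and Ccl20 attract lymphocytes and dendritic cells through Ccr7 and Ccr6. Ccl19 (chr4:42754525-42756577, minus strand) had 129.9, 183, 124, 113 and 58.1 in EVP, 56.9, 94.9, 42.4, 55.6 and 18.1 in TA and 0, 0, 0, 2.25 and 0 in D. In D it rested on 3 reads, all in D4. The mean of EVP was 269 times that of D, with a counting interval of 92.2 to 1306 that covers only the error of these 3 reads (log2 fold change 6.51, SE 0.59, limma, adjusted p = 3.22e-07, where the fitted value depends on the added count of 1), and TA was 119 times above D (interval 40.7 to 576). Without D4, D had no read, and against the limit of 3 reads a library EVP was at least 45.3-fold and TA at least 19.98-fold higher. Copies of this gene are near identical, and the further row named Ccl19 was at 0, so reads may have been split or dropped between them. Ccl20 (chr1:83116766-83119167) had 70.2, 37.9, 85.1, 7.19 and 141 in EVP, 34.5, 0, 45.8, 7.84 and 38 in TA and 31.6, 0, 0, 0 and 0 in D. Its only reads in D were in D1, the D library with the most reads on olfactory receptor genes. EVP was 10.8 times above D (log2 fold change 4.60, SE 1.22, limma, adjusted p = 0.0115), a call that edgeR (adjusted p = 0.213) and DESeq2 (0.118) did not make. Without D1, EVP was at least 30.8-fold higher, against the limit of 3 reads a library.

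The other CC ligands were low or uneven, and none was called by limma, edgeR or DESeq2. Ccl25, a ligand of Ccr9, had 133 to 267 in EVP, 101 to 356 in TA and 78.1 to 157 in D. Ccl22 and Ccl17, ligands of Ccr4 from dendritic cells, reached 324 and 77.4 in TA libraries and were at 0 in 3 D libraries each. Ccl24, a further eotaxin, spanned 0 to 56.2 in EVP, 0.879 to 165 in TA and 0 to 82.4 in D, and Ccl28, an epithelial ligand, had 270.4 in EVP1, 145 in TA1 and 9.61 in D1 but at most 6.7 in the other 12 libraries, so its reads followed the number 1 libraries.

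Cxcl1, Cxcl2, Cxcl3 and Cxcl5, CXC ligands that attract neutrophils through Cxcr2, lie close together on chromosome 5. Of these 4, 3 were called higher in EVP than in D, beside 11.6% of all tested genes. Cxcl15, which lies among them, was not called (EVP against D adjusted p = 0.737, limma). The CXC ligand Ppbp, outside the naming rule, was called higher in D than in EVP. Cxcl1 (chr5:90891241-90893115, plus strand) had 18889.6, 15603, 14038, 10962 and 9928 in EVP, 4118, 11834, 5077, 2896 and 5153 in TA and 1080.5, 1011, 388, 286 and 296 in D. The EVP libraries were all above the D libraries by a wide margin, and TA2 (11834) lay within the range of EVP. EVP stood 22.7 times above D (log2 fold change 4.71, SE 0.40, limma, adjusted p = 1.64e-07) and TA 9.5 times above D (log2 fold change 3.33, SE 0.40, limma, adjusted p = 2.19e-05), while EVP against TA gave a log2 fold change of 1.39 (adjusted p = 0.0701 in limma and 0.0336 in DESeq2).

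Cxcl5 (chr5:90759360-90761624) had 8806, 6344, 7587, 1282 and 6413 in EVP, 929, 4083, 1313, 823 and 3643 in TA and 48.1, 18, 18.8, 6.01 and 1.21 in D. It was nearly absent from D, and EVP4 was the low library of EVP. The mean of EVP was 331 times that of D (log2 fold change 8.70, SE 0.73, limma, adjusted p = 1.38e-07) and the mean of TA 117 times that of D (log2 fold change 7.12, SE 0.73, limma, adjusted p = 3.51e-06), and without D1 these ratios were 554 and 196. Cxcl2 (chr5:90903871-90905938) had 632, 323, 289.6, 290.1 and 345 in EVP, 398, 1796, 608, 545 and 208 in TA and 162, 181, 167, 88.6 and 27.8 in D. Its level was highest in TA2, and every EVP and TA library was above every D library. TA exceeded D by 5.67 times (log2 fold change 2.38, SE 0.54, limma, adjusted p = 0.00612), or by 3.51 times without TA2, and EVP exceeded D by 3 times (log2 fold change 1.77, SE 0.54, limma, adjusted p = 0.0269), with adjusted p of 0.067, 0.06 and 0.0774 in limma without EVP1, D4 or D5. Cxcl3 had 10.5 to 197 in EVP, 11.2 to 252.3 in TA and 0.604 to 24.7 in D and was not called by limma (EVP against D adjusted p = 0.0578). DESeq2 called it higher in EVP and in TA than in D. Dissociation genes, a list of 12 immediate early and heat shock genes that rise when tissue is digested, summed to 30523 to 85813 normalized counts per kb in EVP, 20429 to 43936 in TA and 16427 to 18252 in D. Of the 12, 6 were called higher in EVP than in D, beside 11.6% of all tested genes. The part of digestion in the levels of these quickly induced ligands was not tested.

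The promoters of these genes are shown because NF-kappaB, the factor activated by inflammatory cytokines, is known to act on them. RefSeq promoters on GRCm38.p6 (250 bases before to 50 after the start) were found for 36 of the 49 genes. Each line gives the bases that end just before the more upstream of the RefSeq and table starts, 5′ to 3′ on its own strand, with matches to the kappaB consensus on either strand in capitals, for Cxcl1 (chr5:90891121-90891240, plus), Cxcl2 (chr5:90903751-90903870, plus), Cxcl3 (chr5:90785981-90786100, plus), Ccl20 (chr1:83116646-83116765, plus) and Cxcl10 (chr5:92348890-92349089, minus).
Cxcl1: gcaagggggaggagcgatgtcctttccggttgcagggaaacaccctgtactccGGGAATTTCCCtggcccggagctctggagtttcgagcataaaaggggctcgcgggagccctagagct
Cxcl2: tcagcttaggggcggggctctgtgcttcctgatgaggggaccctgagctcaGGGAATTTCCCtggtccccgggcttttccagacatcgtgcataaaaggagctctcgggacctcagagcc
Cxcl3: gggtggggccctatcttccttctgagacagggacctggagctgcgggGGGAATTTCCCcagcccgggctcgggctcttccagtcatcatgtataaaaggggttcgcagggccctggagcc
Ccl20: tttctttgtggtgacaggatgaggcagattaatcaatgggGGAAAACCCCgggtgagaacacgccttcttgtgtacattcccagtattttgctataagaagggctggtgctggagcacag
Cxcl10: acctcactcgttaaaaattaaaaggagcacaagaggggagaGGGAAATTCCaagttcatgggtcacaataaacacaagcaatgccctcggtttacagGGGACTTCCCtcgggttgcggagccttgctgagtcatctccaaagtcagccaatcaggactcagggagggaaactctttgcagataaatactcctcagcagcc

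Cxcl1, Cxcl2 and Cxcl3 share an 11-base run, GGGAATTTCCC, that holds 2 overlapping matches and starts 71, 97 and 73 bases before their RefSeq starts. This run was found, on either strand, in 14 of 32851 promoters (0.0426%), and among the 49 genes only in these 3. The kappaB consensus was found in the promoters of 8 of the 36 genes (Ackr2, Ccl9, Ccl20, Ccr3, Cxcl1, Cxcl2, Cxcl3 and Cxcl10, 22.2%) and in 4.51% of all promoters of the same length. The TATA box letters TATAAA were found in 13 of the 36 genes (36.1%) and in 13.6% of all promoters. Both strands were searched. A match describes these letters in this window and was not tested as a site, and the promoters of the other genes, among them Ccl2, Ccl4, Ccl5, Ccl7, Ccl11, Ccl24, Ccr7, Cxcl5, Cxcl11, Cxcl16, Cxcl17 and Cxcr5, were not analysed here.

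Cxcl13 and Cxcl14 had the largest log2 fold changes between EVP and D of the 49 genes in limma. Cxcl13 (chr5:95956951-95961068), which draws B cells to follicles through Cxcr5, had 6236, 9893, 13286, 2908 and 2739.6 in EVP, 1456, 1240.4, 2471, 766 and 816 in TA and 22, 0, 0, 0.751 and 3.63 in D. In D it was over 3 reads only in D1 and D5, and the 3 populations did not overlap. The mean of EVP was 1331 times that of D (log2 fold change 10.99, SE 0.72, limma, adjusted p = 6.76e-09), that of TA 256 times that of D (log2 fold change 8.76, SE 0.72, limma, adjusted p = 2.84e-07) and that of EVP 5.19 times that of TA (log2 fold change 2.24, adjusted p = 0.106, limma). D1, which had the most reads on olfactory receptor genes in D, set most of the mean of D, and without it EVP was 6408 times and TA 1234 times above D.

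Cxcl14 (chr13:56288643-56296551, minus strand), a ligand of skin and fibroblasts, had 1861, 5493, 1455, 5959.9 and 1142 in EVP, 689, 4463, 1829, 1969.8 and 996 in TA and 74.1, 0, 0, 14.3 and 0 in D. EVP and TA overlapped widely, and 3 of the 5 D libraries had no read. EVP was 180.0 times above D (log2 fold change 9.27, SE 1.02, limma, adjusted p = 2.83e-06) and TA 113 times above D (log2 fold change 8.63, SE 1.02, limma, adjusted p = 1.77e-05), and without D1 these ratios were 892 and 558. Cxcl16 (chr11:70453983-70459984), a ligand made as a membrane protein and bound by Cxcr6, had 249, 417, 322, 748 and 400.4 in EVP, 260.3, 765, 302, 1095 and 615 in TA and 98.8, 138, 86.8, 222 and 146 in D. All libraries of EVP and TA were above those of D, by 3.09 times (log2 fold change 1.60, SE 0.40, limma, adjusted p = 0.00792) and 4.39 times (log2 fold change 2.00, SE 0.40, limma, adjusted p = 0.00266). Its exons share 18.3% of their length with Zmynd15 on the other strand, and reads of overlapping genes cannot be told apart without strand.

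**Figure D4:**
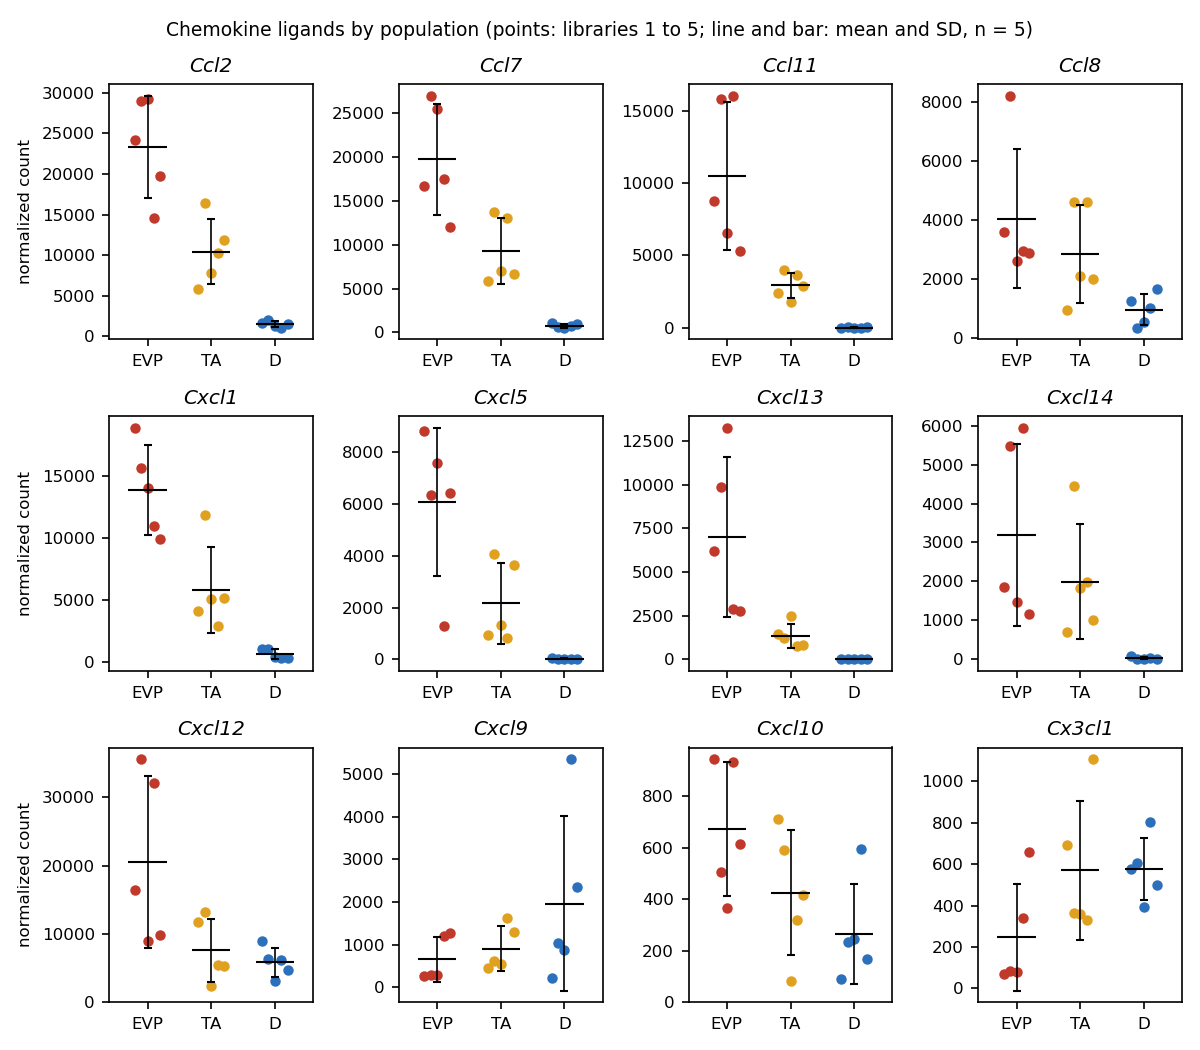
Normalized counts (y axes, each panel with its own scale) of 12 ligands in the libraries of EVP, TA and D (points, 5 each), with the mean and SD as line and bar. Ccl2, Ccl7, Ccl11, Cxcl1 and Cxcl13 step down from EVP to TA to D in their means, while Cxcl9 and Cx3cl1 have their highest mean in D.

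The ligands of Cxcr3, which interferon gamma is known to induce, were not called in any comparison by limma, edgeR or DESeq2. Cxcl9 had its highest mean in D, at 213 to 5358 against 441 to 1625 in TA and 263 to 1263 in EVP, and the range of D was set by D4. Cxcl10 had its highest mean in EVP, at 366 to 944 against 84.8 to 710.1 in TA and 90.6 to 596 in D, and its exons overlap Art3 on the other strand by 5.91% of their length. Cxcl11 stayed at or under 34.6 in every library. The log2 fold changes of EVP against D were -1.25 for Cxcl9 (adjusted p = 0.287, limma), 1.51 for Cxcl10 (0.0584, limma) and -1.28 for Cxcl11 (0.447, limma). Cxcl15 and Cxcl17, ligands of lung and mucosa, had their highest levels of EVP and of D in EVP1 (316 and 42.1) and D1 (53.5 and 17.8) and were not called. Xcl1, made by T and NK cells, had at most 26.4 in any library.

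Cx3cl1 (chr8:94772009-94782427), fractalkine, a membrane-bound ligand of endothelial cells that holds monocytes by Cx3cr1, was the only ligand called higher in D than in EVP. It had 70.2, 83.6, 78.5, 339 and 660.3 in EVP, 695, 365, 358, 331 and 1108 in TA and 579, 608, 395, 803 and 499.8 in D. EVP1 to EVP4 were below every D library, while EVP5 was above 4 of the 5 D libraries, and TA overlapped both populations. The mean of D was 2.34 times that of EVP (log2 fold change -1.81, SE 0.55, limma, adjusted p = 0.0259), or 4.04 times without EVP5, and the call was lost without EVP1, EVP2, EVP3, D2 or D4 (adjusted p 0.0546 to 0.0751 in limma) and was not made by edgeR (adjusted p = 0.194) or DESeq2 (0.12). Its receptor Cx3cr1 (chr9:119901616-120069879), known on monocytes and macrophages, had 87.8, 18.3, 63, 101 and 40.8 in EVP, 6.89, 14.1, 123, 58.8 and 18.7 in TA and 1.37, 3.27, 3.13, 0 and 7.25 in D. It was higher in EVP than in D by 20.7 times (log2 fold change 4.07, SE 0.81, limma, adjusted p = 0.00122) and in TA than in D by 14.7 times (log2 fold change 3.12, SE 0.81, limma, adjusted p = 0.0153). Without D5 these ratios were 32 and 22.8, and without TA3 the second was 8.19. Both calls were lost when the olfactory background was subtracted and under quantile normalization.

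The Cxcl12 axis joins a ligand, a signalling receptor and a scavenger, and its parts differed between the populations in opposite directions. Cxcl12 (chr6:117168535-117181367), the ligand that guides endothelial and blood stem cells, had 16372, 35578, 8904, 32054 and 9788 in EVP, 11798, 13162, 2344, 5401 and 5273 in TA and 8900.5, 6344, 3063, 6248 and 4720.0 in D. The lowest EVP library (8904) and the highest D library (8900.5) almost met, and TA overlapped both. EVP was 3.51 times above D (log2 fold change 1.66, SE 0.47, limma, adjusted p = 0.0166), and without EVP2, EVP4 or D3 the adjusted p was 0.0539, 0.0511 and 0.0517 in limma. In D, Cxcl12 was the leading CXC ligand, at 716 normalized counts per kb or 36.5% of the CXC ligands, followed by Cxcl9 with 33.2%.

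Cxcr4 (chr1:128588199-128592293, minus strand), the signalling receptor of Cxcl12 and a gene of endothelial tip cells, was the only receptor called lower in EVP. It had 28.1, 6.53, 9.82, 24 and 17.3 in EVP, 515, 111, 347, 181 and 10.6 in TA and 255, 340.4, 414, 675 and 279 in D. Every EVP library was below every D library, and TA5 was at the level of EVP while TA1 and TA3 were within the range of D. D was 22.9 times above EVP (log2 fold change -4.52, SE 0.77, limma, adjusted p = 0.000279) and TA 13.6 times above EVP (log2 fold change -3.05, SE 0.77, limma, adjusted p = 0.035), the second call being lost without any 1 of EVP2 to EVP5, TA1, TA3 and TA4 (adjusted p 0.0524 to 0.107 in limma). At 217 normalized counts per kb in D, Cxcr4 made up 64.5% of the 13 signalling receptors and 17.4% of all 17 receptors. Tip cell markers (8 genes) summed to 35098, 8042, 20970.1, 12099 and 2786 normalized counts per kb in TA1 to TA5, where TA1 and TA3 were also the highest for Cxcr4 and TA5 the lowest. The 12 endothelial markers summed to 20356, 5575, 11202, 7303 and 2564 in TA1 to TA5, which is the same order. The part of tip cells, or of endothelial cells as a whole, in this order was not tested.

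Ackr3 (chr1:90203980-90216751), the atypical receptor that takes up Cxcl12 and Cxcl11, was the most abundant receptor of any kind in every population. It had 7373, 13528, 11363, 12929 and 5991 in EVP, 2868, 4369, 3788, 3157 and 2323 in TA and 1454, 1714, 3731, 2589 and 1675 in D. The EVP libraries lay above all TA and D libraries, and TA and D overlapped. EVP was 4.59 times above D (log2 fold change 2.22, SE 0.28, limma, adjusted p = 1.13e-05) and 3.1 times above TA (log2 fold change 1.60, SE 0.28, limma, adjusted p = 0.00481), and TA against D gave 0.62 (adjusted p = 0.178, limma). Both calls were kept in all 27 alternatives. Ackr3 made up 89.8% of the atypical receptor counts per kb in EVP, 90.9% in TA and 72.9% in D.

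The log2 ratio of Ackr3 to Cxcr4 within each library, with 1 added to each normalized count, was 7.99, 10.8, 10.0, 9.02 and 8.36 in EVP, 2.47, 5.29, 3.44, 4.12 and 7.65 in TA and 2.505, 2.33, 3.17, 1.94 and 2.58 in D. In EVP, Cxcr4 had 5 to 30 reads a library, so the ratio there depends on the added count. The EVP libraries were all above the TA and D libraries, and TA1 (2.47) was the only TA library within the range of D. The means were 9.24 ± 1.17 in EVP, 4.59 ± 1.99 in TA and 2.504 ± 0.45 in D (SD, n = 5). Exact two-sided permutation tests, 5 libraries against 5, gave p = 0.00794 for EVP against D and for EVP against TA, the smallest that this design allows, and p = 0.0317 for TA against D, or 0.0119, 0.0119 and 0.0317 after Benjamini-Hochberg adjustment over the 3 comparisons. Cxcr4 and Ackr3 had been seen to differ before this ratio was chosen. Between EVP and D the libraries of both genes did not overlap, in opposite directions. The ratio therefore had to separate there, and its p-value was fixed in advance. The p-values of this ratio are not evidence beyond the calls of both genes. When each library was left out in turn, the difference between TA and D was 1.33 (without TA5) to 2.62 (without TA1) on the log2 scale, and without TA5 or any 1 of the 5 D libraries its adjusted p rose above 0.05, up to 0.0873 in the exact permutation test.

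**Figure D5:**
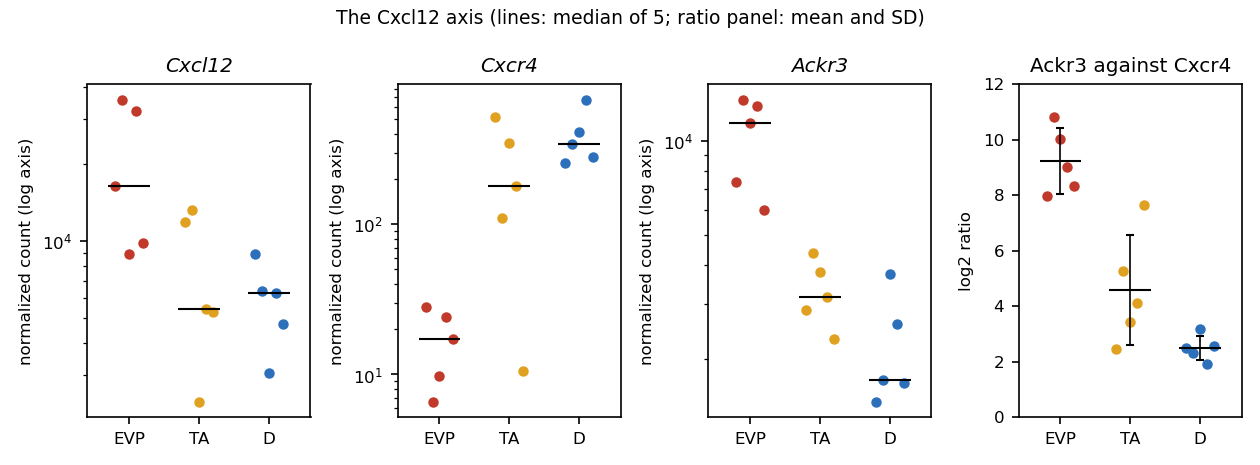
Normalized counts of Cxcl12, Cxcr4 and Ackr3 (y axes, log scale, lines at the median) and the log2 ratio of Ackr3 to Cxcr4 (line and bar, mean and SD) in the 5 libraries of EVP, TA and D (points). Ackr3 falls and Cxcr4 rises in the median from EVP to D, and the ratio is 7.99 to 10.8 in EVP and 1.94 to 3.17 in D.

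The other atypical receptors were at lower levels. Ackr4 (chr9:104084157-104126933), which clears Ccl19 and Ccl25, had 102, 27.4, 13.1, 34.4 and 20.1 in EVP, 82.7, 327, 15.6, 47 and 44.2 in TA and 23.3, 11.4, 0, 6.01 and 4.83 in D. TA2 was the highest library, and TA was 11.3 times above D (log2 fold change 3.26, SE 0.89, limma, adjusted p = 0.0209), with an adjusted p of 0.0608 and 0.0559 in limma without TA2 or D3. The ratio was 5.195 without TA2 and 18.6 without D1, and the call was not made by edgeR (adjusted p = 0.0528) or under quantile normalization. Ackr2, which clears inflammatory CC ligands, had 138 to 641 in EVP, 10 to 222 in TA and 142 to 349 in D. Ackr1, a marker of venules that carries chemokines across the vessel wall, had 56.7 to 444 in EVP, 0 to 168 in TA and 61.8 to 615 in D. Neither was called by limma, while DESeq2 called Ackr2 higher in EVP than in TA (adjusted p = 0.0233) and quantile normalization called Ackr1 between TA and D. Ackr1 shares 25.7% of its exon length with Cadm3 on the same strand.

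The remaining receptors are known from leukocytes, and the cells had been depleted of lineage-positive blood cells before the sort. Cxcr3 (chrX:101731535-101734269), the receptor of Cxcl9 to Cxcl11 on T and NK cells, had 3.51, 30, 55.6, 77.5 and 87.1 in EVP, 55.2, 119, 72.5, 342 and 217 in TA and 1.37, 0, 0, 9.01 and 29.6 in D. All TA libraries were above all D libraries, by 20.1 times in the mean (log2 fold change 5.12, SE 1.00, limma, adjusted p = 0.0022) and by 62 times without D5. EVP was 6.35 times above D (log2 fold change 3.24, SE 1.00, limma, adjusted p = 0.0295) and 19.5 times without D5, a call not made by edgeR or DESeq2 and lost without any 1 of EVP2 to EVP5 and D1 to D3 (adjusted p 0.0522 to 0.0848 in limma). Cxcr6 (chr9:123806475-123811760), the receptor of Cxcl16, had 334, 19.6, 15.5, 71.1 and 53.9 in EVP, 65.5, 8.79, 3.35, 19.6 and 21.8 in TA and 42.6, 0.816, 0, 1.5 and 0 in D. It was highest in EVP1, TA1 and D1 of the populations, and EVP was 11 times above D (log2 fold change 4.22, SE 1.095, limma, adjusted p = 0.00989). This ratio moved widely with the number 1 libraries. It was 4.46 without EVP1 and 170.3 without D1, where 3 reads remained in D (counting interval 58.3 to 826). The call was kept without the number 1 libraries and in all 15 fits that left out 1 library. DESeq2 also made it (adjusted p = 0.0412), and edgeR did not (adjusted p = 0.154).

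T and NK cell markers (10 genes) summed to 46.6 to 403 normalized counts per kb in EVP, 90.2 to 764 in TA and 3.88 to 48.5 in D. Of the 10, 2 (Nkg7 and Gzmb) were called higher in EVP and in TA than in D, beside 11.6% and 8.21% of all tested genes. Of the defining T cell markers, Cd3e had 0 to 45.6 normalized counts in EVP, 1.25 to 50 in TA and 0 to 32.9 in D. Cd3d had 0 to 31.6, 0.879 to 18 and 0 to 4.12, and Cd3g 0 to 186, 5.58 to 25.9 and 0 to 13.7. Cd8a, of cytotoxic T cells, had 0 to 40.8 in EVP, 1.72 to 185 in TA and 0 to 2.75 in D. Their means were lowest in D, by little for Cd3e and widely for Cd3d, Cd3g and Cd8a, and none of these 4 was called. The part of these cells in the levels of Cxcr3 and Cxcr6 was not tested.

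The other signalling receptors were not called by limma in any comparison. DESeq2 called Ccr1 higher in TA than in EVP and than in D, and Ccr7, Cxcr5 and Xcr1, among others, higher in TA than in D. Xcr1 was also called higher in TA than in D by edgeR. Ccr2, the receptor of Ccl2 and Ccl7, had 22.9 to 726 in EVP, 4.46 to 2040.3 in TA and 32 to 262 in D. Ccr1 had 54.8 to 200.1 in EVP, 166 to 889 in TA and 83.3 to 198 in D. Ccr7 and Xcr1, both known on migrating or cross-presenting dendritic cells, had their highest levels of TA and of all libraries in TA4, at 1255 and 1429, as did Cxcr5 at 255. Cxcr2, the receptor of Cxcl1, Cxcl2, Cxcl3 and Cxcl5, stayed at 0 to 123, and Ccr3, the receptor of Ccl11, at 0 to 66.7, so few reads of these receptors stood beside the abundant Cxcl1 and Ccl11. Ccr9 had 864 in EVP1 and at most 56.3 elsewhere, and 18.8% of its exon length is shared with another gene on the opposite strand. TA4 was the highest TA library for 15 of the 49 genes, 7 of them among the 13 receptors, and the calls between TA and D without it were 14 higher in TA and 1, Ackr1, higher in D.

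Of 26 genes that relay the signal of chemokine receptors, 10 were called higher in D than in EVP and 3 higher in EVP, where the shares over all tested genes were 7.46% and 11.6%. Of the same 26, 9 were called higher in D than in TA and 6 higher in TA (4.31% and 8.21% of all tested genes), and 3 higher in TA than in EVP and none higher in EVP by limma (1.94% and 1.56%). The median log2 fold change of EVP against D over the list was -0.44 beside 0.46 over all tested genes. The G protein subunit Gng11 had 730.3 to 2789 normalized counts in EVP, 2980.5 to 6987 in TA and 10394 to 15112 in D (log2 fold change of EVP against D -3.12, SE 0.29, adjusted p = 5.2e-07, limma). Plcb1, a phospholipase activated by G proteins, had 48.3 to 267 in EVP and 1671 to 2829 in D (-4.26, SE 0.53, adjusted p = 1.03e-05, limma), and the arrestin Arrb1 had 148 to 330.0 in EVP and 937 to 1340.2 in D (-2.18, SE 0.31, adjusted p = 4.24e-05, limma). Grk3, a receptor kinase, ran the other way, with 32.7 to 125 in EVP and 0 to 23.3 in D (4.53, SE 0.75, adjusted p = 0.00022, limma).

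Enzymes shed or cut chemokines, and heparan sulfate holds them at the cell surface. Of 12 genes of shedding and cleavage, 5 were called higher in EVP than in D (Dpp4, Mmp2, Mmp9, Ctsk and the inhibitor Timp1) and 1, Adam10, higher in D, beside 11.6% and 7.46% of all tested genes. Dpp4, which trims the ends of Ccl5, Ccl11 and Cxcl12, had 3849 to 10568 normalized counts in EVP, 836 to 2915 in TA and 0 to 34.3 in D (9.16, SE 0.70, adjusted p = 4.67e-08, limma). Adam10, which sheds Cx3cl1 and Cxcl16, had 1791 to 2763 in EVP and 6613 to 8671 in D (-1.73, SE 0.24, adjusted p = 2.75e-05, limma). Of 22 heparan sulfate genes, 11 were called higher in EVP than in D and 2, Sdc3 and Hspg2, higher in D, and 10 were called higher and 1 lower in TA than in D (8.21% and 4.31% of all tested genes). The syndecan Sdc4 had 4283 to 10569.5 in EVP and 220.4 to 563 in D (4.69, SE 0.29, adjusted p = 3.25e-09, limma), and Hspg2, perlecan of the vessel wall, had 1003 to 1756 in EVP and 2706 to 5053 in D (-1.32, SE 0.30, adjusted p = 0.0037, limma). The medians of EVP against D over these lists were 0.29 and 1.18 on the log2 scale, below and above the 0.46 of all tested genes.

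Of 23 genes of NF-kappaB and of the receptors that induce chemokines, 6 were called higher in EVP than in D and none lower, 3 were called higher in EVP than in TA and 4 higher in TA than in D by limma, with none lower. Over all tested genes 11.6%, 1.56% and 8.21% were called in these directions, and the median log2 fold change of EVP against D was 0.197 over the list and 0.46 over all. The 6 were Nfkbia, Nfkbiz, Tnfaip3, Ikbke, Il1r1 and Il17ra, of which Nfkbia and Tnfaip3 are brakes of the pathway, Nfkbiz is a nuclear cofactor of it, Ikbke is a kinase, and Il1r1 and Il17ra are receptors of interleukins. Il1r1 had 2061 to 3438 normalized counts in EVP, 779 to 2111 in TA and 134 to 416 in D (3.35, SE 0.30, adjusted p = 2.74e-07, limma). Nfkbiz had 2149 to 5634, 1013 to 2656 and 523 to 998 (2.37, SE 0.30, adjusted p = 1.24e-05, limma). The factor subunits Nfkb1, Rela and Relb and the interferon receptors Ifngr1 and Ifngr2 were not called in any comparison.

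Relatives that the naming rule left out were measured for 10 tested genes. Rarres2, chemerin, a chemoattractant of another fold, had 4701 to 23043 normalized counts in EVP, 1874 to 8946 in TA and 14.1 to 56.3 in D (8.32, SE 0.46, adjusted p = 1.14e-09, limma). The platelet CXC ligands Pf4 and Ppbp were both called higher in D and in TA than in EVP, with Pf4 at 92.4 to 499 in EVP, 617 to 1549 in TA and 309 to 612 in D (log2 fold change of EVP against TA -2.42, SE 0.39, adjusted p = 0.00333, limma). Mif, which also binds Cxcr4, had 2277 to 4143 in EVP and 1551 to 2467 in D (0.83, SE 0.20, adjusted p = 0.00697, limma). Of the 10 genes, 2 were called higher in EVP and 3 higher in D between these populations (11.6% and 7.46% of all tested genes), 3 higher in TA than in EVP (1.94%), and 3 higher in TA than in D (8.21%).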

How the data were processed

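RNA of 15 libraries (EVP, TA and D, 5 each) was sequenced in pairs of 76 bp after a modified Smart-Seq2 protocol that does not keep strand. Per the study's methods, the authors aligned reads with STAR 2.5.3a to mm10 (GRCm38, Ensembl release 91), assigned them to genes with HTSeq-count 0.6.1 and divided the counts by DESeq2 1.10.1 size factors, and the deposited signal values are these normalized counts. Tables of the authors' own comparisons (means, fold changes, standard errors and p-values) were not used.

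Genes with a mean of at least 5 were tested with limma 3.58.1 (R 4.3.3, empirical Bayes with trend, 1 coefficient per population) on log2(normalized count + 1). These log2 fold changes are differences of mean logs, which depend on the added count where a gene is low. They can lie above or below the log2 of the ratio of means. In EVP against D, Cxcl14 had 9.27 in limma and 7.51 in DESeq2, and Ccl19 had 6.51 and 7.96. Benjamini-Hochberg adjustment ran over all 25549 tested genes at a threshold of 0.05. Folds are ratios of mean normalized counts, and levels per kb divide them by exon length. All 15 libraries gave whole reads at a single step (100% of values within 0.01), and edgeR 4.0.16 and DESeq2 1.42.0 were run on those reads as alternatives, beside other pseudocounts, minimum means, scalings, background subtraction, a replicate block and fits without single libraries. The model code was tested on simulated data. Tables were made with Python 3.11.15, pandas 2.3.3 and numpy 2.4.6.

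Genes called in at least 1 comparison or among the 10 highest means were described with the value of each library and the others by range. The genes, pathway lists and marker lists were chosen with earlier results of these data known. The symbols Ccl21a, Ccl21b, Ccl21c, Ccl27a and Itgam were not used here. The values of 1 gene counted among the 49 are not reported here. Counting intervals cover counting error only, since reads carried no molecular identifiers.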

Additional observations from a re-analysis of the deposited data

Results flagged for a closer look

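In 16 of 146 groups of 5 libraries, 1 library stood apart from the other 4. Its gap was over 0.71 of the range of the group on the scale of log2(normalized count + 1). For normally distributed values chance gives about 1 group in 20. Where the other 4 libraries had no read, any library with reads passed this limit (Cxcl15, Ccl20 and Ccl28 in D1, Xcl1 in D4). The 16 groups therefore cannot be set against that rate. The values below are printed as normalized counts, on which scale the gaps differ, and their causes were not tested.

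Of these, 5 were high values in D1, the D library with the most reads on olfactory receptor genes: Cxcr6 (42.6, others at most 1.5), Cxcl15 (53.5), Ccl20 (31.6) and Ccl28 (9.61), each of the last 3 with the other D libraries at 0, and Cxcl17 (17.8, others at most 0.751). EVP1, the library with most such reads, was high for Cxcl2 (632, others 289.6 to 345) and Ccl25 (267, others 133 to 154) and low for Ccl5 (77.2, others 165 to 211).

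Cxcl5 was low in EVP4 (1282, others 6344 to 8806), and Ccl8 was high in EVP2 (8204, others 2608 to 3574). Xcr1 was low in EVP3, at 0.818 on 1 read, against 90.1 to 221 in the other EVP libraries. In EVP5, Ackr1 (56.7, others 272 to 444) and Cxcr5 (3.46, others up to 33.6) were low. D3 was low for Ccl4 (80.5, others 160.0 to 211) and Ccl3 (15.6, others 65.9 to 97.1). Xcl1 had 4 reads in D4 (3.005) and none in the other D libraries.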

How the results depend on the processing

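Of 1134 values of called genes under the alternatives, 1028 kept their direction and stayed past the threshold, and 106 kept their direction but passed it no longer. Between EVP and TA, 893 genes were called in all, against 586 with the olfactory background subtracted, 522 without the number 1 libraries, 1900 with DESeq2 and 428 to 1209 when single libraries were left out. Of the 49 chemokine genes 6 were called there, against 14 with DESeq2, 3 with no minimum mean, 1 (of 47 tested) without the number 1 libraries and 1 to 8 without single libraries. Between TA and D, 3199 genes were called in all and 2117 under quantile normalization. The Ackr3 to Cxcr4 ratio of TA against D was 1.33 to 2.62 without single libraries. The causes were not tested.

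A replicate block called 5710, 1262 and 4047 genes (EVP against D, EVP against TA, TA against D) and 24, 9 and 20 of the 49 genes, losing Ccl7 between EVP and TA and Ccl8 between TA and D and adding Ackr4, Cxcl3, Cxcl9 and Cxcl10 between EVP and D, Ccl6, Ccr1, Cxcl1 and Cxcl12 between EVP and TA, and Ackr1, Ackr3, Ccl4, Ccr1 and Cxcr6 between TA and D. Deviations of same-numbered libraries correlated at -0.14 to 0.69. Each number but 3 was closest to its own in every comparison, a hint from the data, but at least 1 pair in each comparison correlated under 0.1 and no label gives a shared source, so the numbers were not taken to pair the samples. EVP1, with 5394356 reads, has the highest limit of detection (10.5 normalized counts), which limits low genes such as Cxcr3 (3.51) there.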

Other observations

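Markers of other cell types also differed between the populations, beside the levels given above. Mast cell markers (6 genes) summed to 3016 to 68310 normalized counts per kb in TA, 28.7 to 10879 in EVP and 236 to 455 in D. Of the 6, 5 were called higher in TA than in D by limma, beside 8.21% of all tested genes. Melanoma markers (7 genes) summed to 24416 to 62151 in TA, 9929 to 23173 in EVP and 6506 to 16330 in D, with all 7 called higher in TA than in D, although the sort required GFP. Mural cell markers (10 genes) summed to 3987 to 46154 in TA, highest in TA5, 2314 to 12163 in EVP and 4136 to 8093 in D. Between EVP and D, 4 of them were called higher in EVP and 3 higher in D, beside 11.6% and 7.46% of all tested genes. Keratinocyte markers (5 genes) summed to 446 to 33636 in TA, 493 to 2847 in EVP and 25.6 to 839 in D. They were highest in TA2, the TA library with the highest Cxcl1 and Cxcl2. TA2 also held the highest neutrophil marker sum (6693, against 103 to 972 in EVP and 105 to 498 in D), with none of these markers called in any comparison by limma.

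Arterial (8 genes) and venous (7 genes) markers were highest in D, at 2690.05 to 6239 and 5036 to 7316, against 102 to 317 and 98.8 to 268 in EVP. Of 6 lymphatic markers, Pdpn, which fibroblasts also express, was called higher in EVP (8163 to 18726 normalized counts, against 59.4 to 252.3 in D), and Lyve1, Flt4 and Mmrn1 were called higher in D by limma. B cell markers (4 genes) reached 1907 in TA3 and stayed under 322 in EVP. The part of these cells in the chemokine levels was not tested.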
